A study of Mus musculus with 6 samples.

Results

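Transcripts of 10 genes that brake or gate the G1 phase of the cell cycle were measured in single cells of 6 cultured mouse populations. The genes were the CIP/KIP inhibitors Cdkn1a and Cdkn1b, the INK4 inhibitors Cdkn2c and Cdkn2d, the pocket proteins Rb1, Rbl1 and Rbl2, and the D-type cyclins Ccnd1, Ccnd2 and Ccnd3. They were taken by name, without a rule on their values but with earlier results of these data known. They are 10 of the 21485 genes counted in all 6 matrices. All 10 passed the filter on low counts in every comparison below. The cells were muscle-derived stem/progenitor cells (MDSPCs), the late-adhering fraction of dissociated skeletal muscle, obtained by moving cells that had not yet attached from one collagen-coated flask to the next. Group young held 3 populations from young mice and group old held 3 from old mice, each labelled as a biological replicate. Both groups were grown in the same proliferation medium, DMEM with fetal bovine and horse serum and chick embryo extract, and no treatment or genetic change is given for either. The labels give no ages, sex or strain, nor whether a population came from 1 animal or several, so p-values measure the spread between these cultures.

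As background, D-type cyclins join CDK4 or CDK6 when growth factors are present, and these kinases phosphorylate the pocket proteins, which releases E2F factors and the genes of S phase. INK4 proteins bind CDK4 and CDK6 directly, whereas CIP/KIP proteins mainly block cyclin E and cyclin A complexes with CDK2. In skeletal muscle, leaving the cell cycle goes with differentiation: myoblasts that express the transcription factor myogenin (Myog) are known to accumulate p21, the product of Cdkn1a, cyclin D3 and active RB1.

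Each sample was 1 droplet library of 3′ transcript ends, in which unique molecular identifiers (UMIs) count RNA molecules. The deposited matrices held 8912 to 12808 barcodes and 133974782 to 196481316 UMIs per sample, and 8674 to 12541 cells per sample passed the filters. Any pair of libraries shared 24 to 41 barcodes. Young population 1 and old population 1 were counted on a shorter gene list than the other 4 libraries, and the model for age holds a term for it. All 10 myogenic markers were detected in every library, but Myf5 was at 0.0075 CPM in young population 1. The number above 10 CPM was 8, 10 and 6 in young populations 1 to 3 and 7, 10 and 10 in old populations 1 to 3. Their summed level ran from 310.2 CPM in old population 1 to 3709 CPM in old population 3, with Myog itself at 6.25 and 935 CPM in those libraries. Defining markers of immune (1.59 to 8.27 CPM in sum) and Schwann cells (0.711 to 2.58 CPM) were near 0 in all 6. Those of endothelium were at 0.546 to 1.72 CPM except in young population 2, at 59.4 CPM, where 1 of the 6 genes exceeded 10 CPM. Fibro-adipogenic markers summed to 283 to 511 CPM, with Lum at 0 in 5 libraries. This sum exceeded the myogenic sum in young population 3 (326 against 312 CPM) and old population 1 (345 against 310.2 CPM), and was below it elsewhere. Young population 3 and old population 1 each had 4 of the 10 fibro-adipogenic markers above 10 CPM, against 6 and 7 of the 10 myogenic markers. The sums of different genes do not rank the kinds of cell. Tenocyte markers summed to 119.9 to 303 CPM, where 1 of 4 genes exceeded 10 CPM, and smooth muscle and pericyte markers to 14.6 to 92.3 CPM. The part of these differences in the results below was not tested. CPM is a gene's UMI count relative to all UMIs on shared genes in the same cells, in the usual unit of library-normalized counts.

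The CIP/KIP gene Cdkn1a (ENSMUSG00000023067; chr17:29090976-29100727, plus strand, GRCm38) encodes p21, a target of p53 and of myogenic factors. Its level over all cells was 363, 556 and 125 CPM in young populations 1, 2 and 3 and 411, 1718 and 113 CPM in old populations 1, 2 and 3. Old population 2 stood far above the rest and old population 3 was the lowest of the 6, a range of 15.2-fold, so the old group held both extremes. The high level of old population 2 was spread over its cells: after each cell was thinned to 5000 UMIs, 95.3% of its cells had a Cdkn1a UMI and the median cell had 6, whereas 18.6% of cells did in old population 3. In the other populations that share was 69.0%, 74.4%, 37.0% and 74.1% (young 1, 2 and 3 and old 1). Chromosome 17, where Cdkn1a lies, had a median shift of -0.10 (log2) in old population 2.

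Cdkn1b (ENSMUSG00000003031; chr6:134920401-134925513, plus strand), which encodes p27, the inhibitor that accumulates in quiescent cells and is mainly set by protein turnover, was at 10.4, 28.1 and 40.2 CPM for young 1 to 3 and 15.7, 17.5 and 13.2 CPM for old 1 to 3 (replicates 1, 2 and 3 in this order here and below). Young populations 2 and 3 were above all 3 old ones, while young population 1 was the lowest of the 6. Chromosome 6, which carries Cdkn1b, was higher as a whole in young population 3, by a median of 0.39 on the log2 scale over 386 genes, and its part in the Cdkn1b level was not tested.

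The INK4 gene Cdkn2c (ENSMUSG00000028551; chr4:109660876-109667189, minus strand), which encodes p18, was at 26.1, 39.4 and 24.3 CPM for young 1 to 3 and 28.4, 46.5 and 55.3 CPM for old 1 to 3. Cdkn2d (ENSMUSG00000096472; chr9:21288410-21291407, minus strand), which encodes p19 of the INK4 family, was at 35.0, 53.5 and 54.9 CPM for young 1 to 3 and 35.5, 51.0 and 92.6 CPM for old 1 to 3. For both genes old population 3 was the highest and the other 5 populations interleaved. Chromosome 4, with Cdkn2c, was shifted by 0.21 in young population 2 over 502 genes.

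Of the pocket protein genes, Rb1 (ENSMUSG00000022105; chr14:73183673-73325822, minus strand), the retinoblastoma tumour suppressor, was at 17.3, 24.3 and 13.0 CPM for young 1 to 3 and 19.0, 33.3 and 62.0 CPM for old 1 to 3. Its highest levels were in old populations 3 and 2, and young population 2 lay above old population 1. Rbl1 (ENSMUSG00000027641; chr2:157145893-157204534, minus strand), which encodes p107, a pocket protein that is itself an E2F target, was at 8.10, 12.9 and 15.5 CPM for young 1 to 3 and 14.5, 7.54 and 11.6 CPM for old 1 to 3. Rbl2 (ENSMUSG00000031666; chr8:91070057-91123844, plus strand), which encodes p130, the pocket protein of the DREAM complex in resting cells, was at 6.80, 9.48 and 10.0 CPM for young 1 to 3 and 6.61, 15.9 and 7.10 CPM for old 1 to 3. From the lowest to the highest population Rbl1 and Rbl2 spanned 2.06-fold and 2.40-fold, and old population 2 was the lowest for Rbl1 and the highest for Rbl2.

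Among the D-type cyclins, Ccnd1 (ENSMUSG00000070348; chr7:144929931-144939925, minus strand), the form most directly driven by growth factor signals, was at 513, 132 and 402 CPM for young 1 to 3 and 779.6, 329 and 315 CPM for old 1 to 3. Ccnd2 (ENSMUSG00000000184; chr6:127125162-127152193, minus strand) was at 234, 83.9 and 72.9 CPM for young 1 to 3 and 221, 135 and 91.9 CPM for old 1 to 3. For both, young population 1 and old population 1 were the top pair, and these are the libraries on the shorter gene list with the fewest Myog cells, so gene list and population cannot be told apart for this pattern. Chromosome 6, with Ccnd2, was shifted by 0.39 (log2) in young population 3, the lowest for Ccnd2, and its part was not tested. Ccnd3 (ENSMUSG00000034165; chr17:47505051-47599691, plus strand), the cyclin that is kept in differentiating muscle cells, was at 57.7, 58.1 and 68.0 CPM for young 1 to 3 and 51.9, 72.6 and 172 CPM for old 1 to 3. Old population 3 stood alone at the top and the other 5 spanned 51.9 to 72.6 CPM. Rb1, Ccnd3, Ccnd1 and Rbl2 share exonic bases with counted genes of the opposite strand (Lpar6 and Rcbtb2, Bysl, LTO1 and Aktip), and whether the counting used strand is not given in the sources used here.

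**Figure D1:**
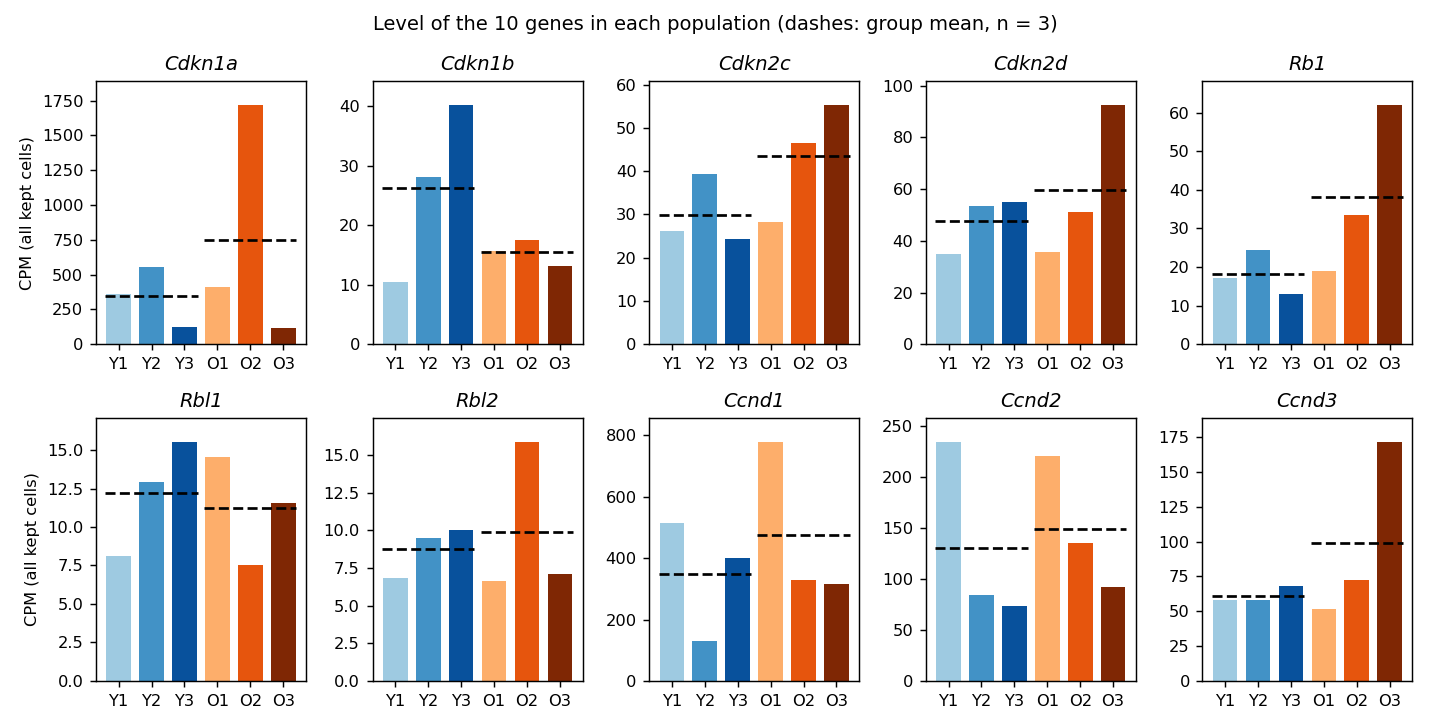
Level of each of the 10 genes in CPM (linear axis from 0, its own scale per panel) in young populations 1 to 3 (Y1 to Y3, blue) and old populations 1 to 3 (O1 to O3, orange), with 1 bar per library and dashes at the group means. Old population 2 stands out for Cdkn1a at 1718 CPM and old population 3 for Rb1 and Ccnd3 at 62.0 and 172 CPM, and the 2 groups overlap in all 10 panels.

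No member was called different between old and young populations. These sums run over all cells of a culture, in which fewer cells of a kind and less RNA per cell cannot be told apart. In the sums over all cells, the quasi-likelihood test of edgeR, adjusted by Benjamini-Hochberg, called 0 of the 10 genes, against a background of 0.00689% of the 14512 genes tested (1 gene), and 0 of the 10 had an unadjusted p under 0.05, as did 512 of all genes (3.53%). DESeq2, which called 219 genes, also called 0 members. The CPM of the 2 groups overlapped for all 10, while 5.93% of all genes tested showed no overlap, 5.02% with old higher and 0.903% with old lower. The largest fitted differences, as log2 of old over young, were 0.88 (SE 0.54) for Rb1, 0.87 (SE 1.09) for Cdkn1a, -0.66 (SE 0.34) for Cdkn1b and 0.53 (SE 0.51) for Ccnd3, each with an edgeR adjusted p of 1.00. With 1 population left out, the Rb1 difference ran from 0.37 without old population 3, and 0.45 without young population 3, to 1.42 without old population 1 or young population 1. That of Cdkn1b ran from -1.09 without young population 1 or old population 1 to -0.43 without young population 3. When either of these populations on the shorter gene list is left out, the gene list term takes up the other. The age difference then rests on the longer-list libraries, here and in the later fits without either. The other 6 lay between -0.18 for Rbl1 and 0.40 for Cdkn2c, with SE of 0.31 to 0.40. These 6 also moved with 1 population left out: Cdkn2c ran from 0.099 without young population 3 to 0.73 without old population 1 or young population 1, and Ccnd2 from 0.010 without old population 2 to 0.58 without old population 1 or young population 1. The other 4 changed sign in at least 1 such fit. Group means for Cdkn1a were 348 ± 216 CPM (young) and 747 ± 854 CPM (old), each with SD and n = 3. Without old population 2 the Cdkn1a difference turned to -0.93, so its direction was that of 1 library. For Rb1 the means were 18.2 ± 5.74 CPM (young) and 38.1 ± 21.9 CPM (old), each with SD and n = 3, and in cells without Myog UMIs the log2 difference was 0.71 (SE 0.37, edgeR adjusted p = 1.000). Without old population 3 the Ccnd3 difference changed from 0.53 to -0.11. That population also had the highest Ccnd3 level in cells without Myog UMIs, as given below. With SE of this size the test does not show that the groups are alike.

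The share of cells with a UMI of each gene, at 5000 UMIs per cell, showed no difference by test either. Over all cells Rb1 was found in 7.96, 11.1 and 6.11% of young 1 to 3 cells and 8.46, 15.2 and 24.3% of old 1 to 3 cells, and Ccnd3 in 23.6, 23.8 and 27.9% of young 1 to 3 cells and 21.9, 29.4 and 55.1% of old 1 to 3 cells. Shares of Ccnd1 were 83.2, 40.4 and 78.9% of young 1 to 3 cells and 93.8, 64.6 and 62.2% of old 1 to 3 cells. Apart from Cdkn1a, given above, the remaining genes ran from 3.25% of cells for Rbl2 in old population 1 to 61.0% for Ccnd2 in young population 1, with 95% Wilson intervals of at most 1.04 points on either side for counting error. The largest gap between group means was that of Ccnd3, at 35.5% in the old and 25.1% in the young group. Without old population 3 this gap of 10.4 points fell to 0.559, and without old population 1 it was 17.2. For Rb1 the gap of 7.57 points fell to 3.43 without old population 3. An exact two-sided permutation test over the 10 genes gave a lowest raw p of 0.2 and adjusted p of 1 for all 10. With 3 populations against 3 this test cannot go below 0.1. No cell type that should lack these genes was identified, so the share due to free RNA in droplets is not known.

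The cells were then divided within each population by the proliferation genes Mki67 and Top2a, which asks which of the 10 genes go with the division cycle itself. Cells with at least 1 UMI of either made up 48.7, 53.1 and 79.5% of cells in young 1 to 3 and 76.7, 39.6 and 55.1% in old 1 to 3. They also held more UMIs: their median depth was 14436 to 21794 UMIs per library, against 10756 to 19142 in cells without, and whether a cell without such a UMI was out of cycle is not known. Of the 10 genes, 4 were higher and 3 lower in Mki67 or Top2a cells (edgeR, sample as a block, adjusted p under 0.05). Across all 13459 genes tested the same call was made for 49.6%, with 21.9% higher and 27.7% lower, so the count of 7 among 10 by itself sets the members little apart, and the account below is of which genes differed and by how much. The same 7 had an unadjusted p under 0.05, as did 56.2% of all genes. Levels were higher in all 6 populations for 4 members and 23.7% of all genes, and lower in all 6 for 2 members, Ccnd2 and Ccnd3, and 19.5% of all genes. With library-size scaling in place of TMM the calls over all genes moved to 3507 higher and 2926 lower from 2952 and 3724, and the members to 5 higher and 3 lower.

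The 4 genes with higher levels in Mki67 or Top2a cells were Rbl1, the INK4 members Cdkn2c and Cdkn2d, and Cdkn1b. Of the INK4 genes outside the members, Cdkn2b was lower in such cells of every population and Cdkn2a went both ways. Rbl1 was at 12.3, 17.9, 16.8, 16.5, 13.0 and 16.0 CPM in Mki67 or Top2a cells (young 1, 2 and 3, then old 1, 2 and 3) and at 2.85, 5.15, 7.75, 5.34, 3.28 and 3.83 CPM in the other cells of the same libraries. The 2 sets of values do not overlap, and the log2 difference was 1.74 (SE 0.11, edgeR adjusted p = 7.52e-06), or 3.34-fold. Cdkn2d was at 49.2, 71.7, 60.5, 40.5, 78.3 and 124 CPM against 17.2, 25.5, 21.2, 12.2, 29.6 and 38.4 CPM. The ratio varied less between populations than for the other 3 genes, with log2 ratios of 1.40 to 1.73 in the 6 populations and a fitted value of 1.51 (SE 0.05, edgeR adjusted p = 2.28e-07). Cdkn2c was at 33.6, 49.2, 27.0, 31.2, 58.3 and 66.8 CPM against 16.6, 24.3, 7.45, 15.4, 37.3 and 35.3 CPM, a log2 difference of 1.00 (SE 0.15, edgeR adjusted p = 0.00138), higher in 6 of 6 populations. Cdkn1b, at 11.7, 32.1, 40.9, 16.6, 21.0 and 15.1 CPM against 8.76, 21.9, 36.0, 11.5, 14.8 and 9.98 CPM, was higher in 6 of 6 by a smaller step, 0.42 (SE 0.05, edgeR adjusted p = 0.000124).

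The promoters of the 2 genes with the largest of these differences, Rbl1 and Cdkn2d, are printed because E2F activates a group of S-phase genes through sites near their start. The windows reach from 250 bases before to 50 after a RefSeq start (GRCm38.p6, strand of the gene, 5′ to 3′), and 7 of the 10 members had an entry, all but Rb1, Ccnd1 and Ccnd2. Capitals mark matches, on either strand, to the E2F motif, spelled TTTCCCGC, TTTCGCGC, TTTGCCGC or TTTGGCGC, to the cell cycle homology motif TTTGAA, and to the E-box CAGCTG of myogenic factors. These motifs do not overlap one another in the windows shown.
Rbl1, chr2:157204485-157204784, minus strand: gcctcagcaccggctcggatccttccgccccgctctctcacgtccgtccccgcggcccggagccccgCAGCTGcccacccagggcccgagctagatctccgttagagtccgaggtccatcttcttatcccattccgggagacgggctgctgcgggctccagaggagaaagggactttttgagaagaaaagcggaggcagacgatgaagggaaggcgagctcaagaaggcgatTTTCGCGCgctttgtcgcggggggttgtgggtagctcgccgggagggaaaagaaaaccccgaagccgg
Cdkn2d, chr9:21291160-21291459, minus strand: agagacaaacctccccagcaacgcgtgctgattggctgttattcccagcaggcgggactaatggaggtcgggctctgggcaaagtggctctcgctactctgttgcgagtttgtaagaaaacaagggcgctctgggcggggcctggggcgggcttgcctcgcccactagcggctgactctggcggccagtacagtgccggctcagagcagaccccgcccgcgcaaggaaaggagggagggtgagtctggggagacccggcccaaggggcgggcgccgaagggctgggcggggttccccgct
The Rbl1 window held 1 E2F match, TTTCGCGC at bases 233 to 240 of the window, and 1 E-box at bases 68 to 73, and the Cdkn2d window held none of the 3 motifs. The E2F motif was found in 2.26% of all 32851 windows of this length, TTTGAA in 17.9% and the E-box in 16.3%. The windows of Cdkn2c and Cdkn1b held no match to the 3 motifs either, so among the 4 genes with higher levels an E2F match in these letters was seen for Rbl1. A match is not a measured binding site.

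The 4 differences grew with the number of Mki67 and Top2a UMIs in a cell. At 5000 UMIs per cell, Cdkn2d was at 16.1 to 48.0 CPM over the 6 populations in cells without such UMIs, 28.4 to 108 CPM at 1 to 2, 44.8 to 185 CPM at 3 to 5 and 63.7 to 242 CPM at 6 or more. It rose at each step in all 6 populations, as did Cdkn2c and Cdkn1b, and Rbl1 did in 5, with old population 3 falling from 25.0 to 21.1 CPM at the last step. These bins are a description without a test, since the cells of 1 library are not replicates.

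**Figure D2:**
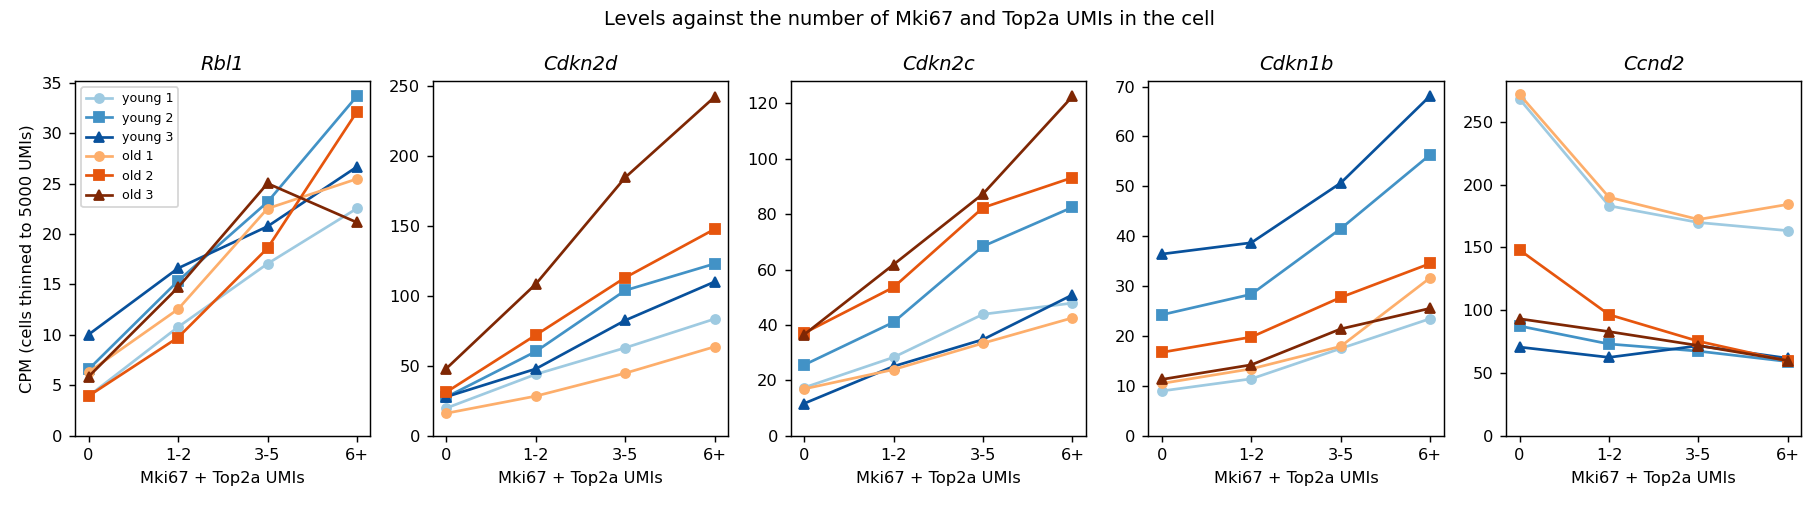
Level in CPM (linear axis from 0) of 5 genes in cells thinned to 5000 UMIs and binned by their number of Mki67 plus Top2a UMIs, with 1 line per library. Cdkn2d, Cdkn2c and Cdkn1b climb from left to right in all 6 libraries and Rbl1 in 5, all but old 3, where it falls at the last step. Ccnd2 is highest in the cells with none in 5 libraries, all but young 3, where it reaches 71.7 CPM at 3 to 5 UMIs against 70.7 CPM at none.

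Ccnd2, Ccnd3 and Cdkn1a were lower in Mki67 or Top2a cells. Ccnd2 was at 190.2, 77.6, 72.1, 201, 99.4 and 88.9 CPM in these cells against 289, 93.7, 77.6, 311, 163 and 97.1 CPM in the others, lower in 6 of 6 populations, with a log2 difference of -0.46 (SE 0.09, edgeR adjusted p = 0.00436). Ccnd3 was lower in 6 of 6, although in old population 1 both classes were at 51.9 CPM when rounded, with a fitted difference of -0.28 (SE 0.06, edgeR adjusted p = 0.00451), which was not called in cells without Myog (-0.11, SE 0.04, edgeR adjusted p = 0.0667). Cdkn1a was at 341, 409.5, 119, 411, 1182 and 90.6 CPM against 389, 782, 156, 410.3, 2139.6 and 152 CPM, with log2 ratios of -0.19, -0.93 and -0.38 for young 1 to 3 and 0.00, -0.86 and -0.74 for old 1 to 3. The fitted difference was -0.56 (SE 0.16, edgeR adjusted p = 0.0254), and this call was lost without young population 2 (edgeR adjusted p = 0.0669), old population 2 (0.0541) or old population 3 (0.0765), and with cells thinned to 5000 UMIs (0.0550). The other 3 genes were not called over all 6 populations: Ccnd1 at 0.09 (SE 0.04, edgeR adjusted p = 0.125), Rbl2 at -0.01 (SE 0.05, edgeR adjusted p = 0.850) and Rb1 at -0.17 (SE 0.12, edgeR adjusted p = 0.267). In the 4 populations on the longer gene list alone, 9 of the 10 members were called, with Ccnd1 at 0.18 (SE 0.04, edgeR adjusted p = 0.0143) and Rb1 at -0.33 (SE 0.07, edgeR adjusted p = 0.00799) added. That fit called 38.8% of the 13661 genes tested. With library-size scaling Ccnd1 was called as well (0.13, SE 0.05, edgeR adjusted p = 0.0411). Rbl2, with ratios of -0.06 to 0.16 in the 6 populations, stayed near 0 where its relative Rbl1 ran from 1.12 to 2.11.

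**Figure D3:**
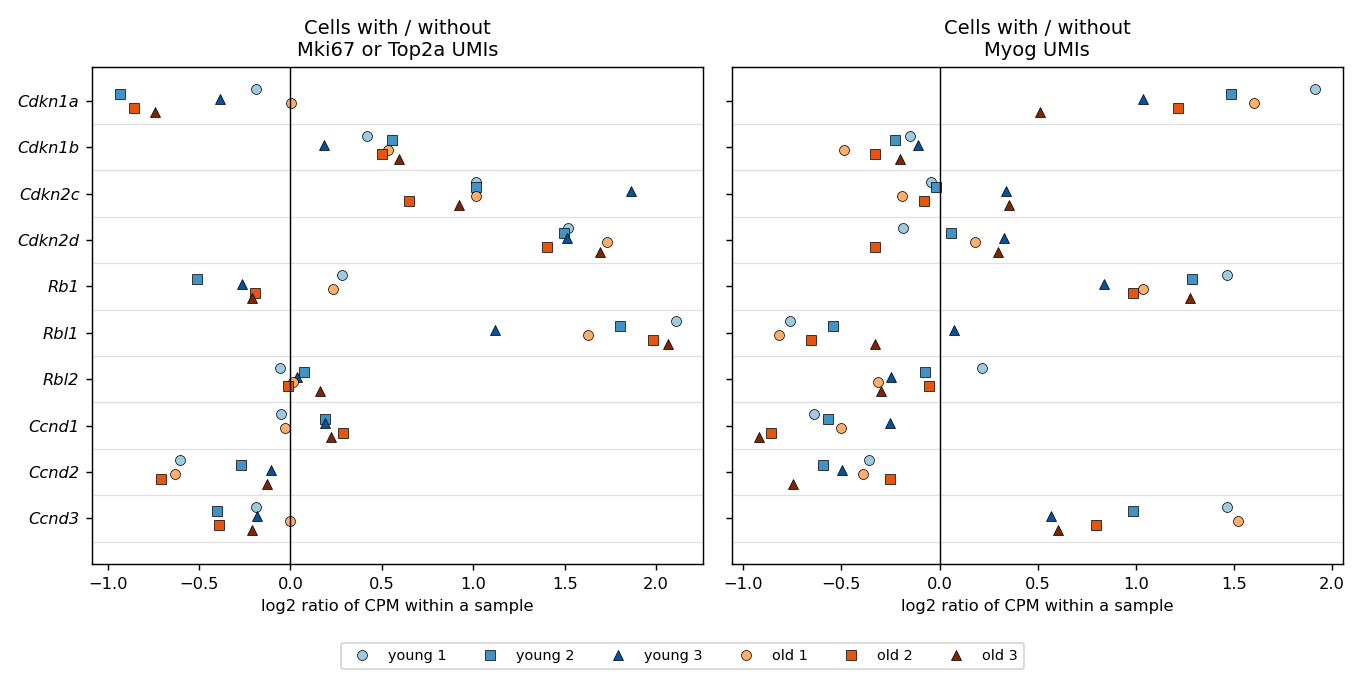
Log2 ratio of CPM within each library between cells with and without Mki67 or Top2a UMIs (left) and with and without Myog UMIs (right), for the 10 genes, 1 symbol per population and a line at 0. Rbl1, Cdkn2d, Cdkn2c and Cdkn1b lie right of 0 in all 6 populations on the left panel, and Cdkn1a, Rb1 and Ccnd3 do on the right panel, where Ccnd1, Ccnd2 and Cdkn1b lie left of 0 in all 6.

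The second division was by Myog, which marks myoblasts that have committed to differentiate. Cells with at least 1 Myog UMI made up 4.89, 29.4 and 10.1% of cells in young 1 to 3 and 1.15, 22.4 and 56.0% in old 1 to 3, so old population 1 entered with 117 such cells and old population 3 with 7022. The groups overlap in this share. Of the 10 genes, 3 were higher and 4 lower in Myog cells, where edgeR called 32.5% of the 13577 genes tested, 13.6% higher and 18.9% lower. The same 7 had an unadjusted p under 0.05, as did 44.7% of all genes. Levels were higher in every population for 3 members (13.0% of all genes) and lower in every population for 3 (20.3%).

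Cdkn1a, Rb1 and Ccnd3 were higher in Myog cells of every population. Cdkn1a was at 1207, 1007, 229, 1218, 3042 and 129 CPM in Myog cells (young 1, 2 and 3, then old 1, 2 and 3) against 321, 359.6, 112, 402, 1313 and 90.4 CPM in the other cells of the same libraries, with log2 ratios of 1.91, 1.49 and 1.04 for young 1 to 3 and 1.60, 1.21 and 0.51 for old 1 to 3. The smallest ratio was in old population 3, the culture with the most Myog cells and the lowest Cdkn1a, and the fitted difference was 1.30 (SE 0.17, edgeR adjusted p = 0.00349), or 2.47-fold. In that population the share of cells with a Cdkn1a UMI at 5000 UMIs was 18.3% of Myog cells and 18.8% of the others, whereas in young population 1 it was 95.3% and 68.0%. Rb1 was at 44.0, 41.4, 21.3, 38.4, 53.6 and 81.9 CPM against 15.9, 16.9, 11.9, 18.8, 27.1 and 33.8 CPM, a log2 difference of 1.17 (SE 0.09, edgeR adjusted p = 0.000166) or 2.25-fold. Ccnd3 was at 147, 88.7, 95.8, 146, 108 and 199.8 CPM against 53.2, 44.8, 64.6, 50.8, 61.9 and 132 CPM, a log2 difference of 0.99 (SE 0.13, edgeR adjusted p = 0.00287) or 1.98-fold. The ratios of Ccnd3 ran from 0.57 to 1.52 and were highest in young population 1 and old population 1. With the class set at 3 or more Myog UMIs, the differences were 1.94 for Cdkn1a, 1.72 for Rb1 and 1.44 for Ccnd3. Among cells without Mki67 or Top2a UMIs alone, where edgeR called 36.7% of genes, they were 1.86, 1.81 and 1.27. Among cells with such UMIs, where it called 17.4%, they were 0.68, 0.71 and 0.70. All 6 values passed the threshold.

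The promoter of Cdkn1a is printed for its place in this contrast, at the first of its 2 RefSeq starts, with capitals as above.
Cdkn1a, chr17:29090729-29091028, plus strand: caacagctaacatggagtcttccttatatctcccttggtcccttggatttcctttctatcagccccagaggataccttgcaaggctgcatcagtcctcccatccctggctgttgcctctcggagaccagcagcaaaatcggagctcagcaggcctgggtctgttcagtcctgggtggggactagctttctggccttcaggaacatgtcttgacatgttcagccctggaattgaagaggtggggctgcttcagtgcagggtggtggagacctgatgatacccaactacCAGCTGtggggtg
It held 1 E-box match, at bases 288 to 293, which lies after the start, and no E2F match or TTTGAA. An E-box was found in 16.3% of all windows. The window at the second start held none of the 3 motifs, nor did that of Ccnd3.

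Ccnd1, Ccnd2, Rbl1 and Cdkn1b were lower in Myog cells. Ccnd1 was at 335, 98.6, 343, 553, 203 and 230.3 CPM against 522, 146, 409, 782, 368 and 435 CPM, lower in 6 of 6 populations, with a log2 difference of -0.61 (SE 0.07, edgeR adjusted p = 0.00117). Ccnd2 was lower in 6 of 6, with a difference of -0.46 (SE 0.06, edgeR adjusted p = 0.00142). The D-type cyclins thus divided, with Ccnd3 higher and the other 2 lower in the same cells. Rbl1 was lower in 5 of 6, at -0.42 (SE 0.11, edgeR adjusted p = 0.0208), and Cdkn1b in 6 of 6, at -0.21 (SE 0.06, edgeR adjusted p = 0.0316). Both of these calls were fragile: without young population 1 or old population 2 the edgeR adjusted p was 0.0602 and 0.0641 for Rbl1 and 0.0661 and 0.102 for Cdkn1b, which also lost its call without young population 2 (0.0683) or old population 3 (0.0658). Neither was called among cells without Mki67 or Top2a UMIs (Rbl1 -0.29, SE 0.14, edgeR adjusted p = 0.142, and Cdkn1b -0.15, SE 0.11, edgeR adjusted p = 0.315). The same held among cells with such UMIs (Rbl1 -0.19, SE 0.07, edgeR adjusted p = 0.0870, and Cdkn1b -0.16, SE 0.07, edgeR adjusted p = 0.112) and on the longer gene list (Rbl1 -0.32, SE 0.12, edgeR adjusted p = 0.106, and Cdkn1b -0.17, SE 0.05, edgeR adjusted p = 0.0763). In the same 3 settings Ccnd1 and Ccnd2 were called each time. The INK4 genes that were higher in Mki67 or Top2a cells, Cdkn2c and Cdkn2d, were not called here, at 0.10 (SE 0.08) and 0.07 (SE 0.09), nor was Rbl2 at -0.10 (SE 0.08). With 1 population left out these values ran from 0.017 to 0.14, 0.0024 to 0.15 and -0.14 to -0.058.

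The 2 classes cross, since between 58 and 3595 cells per library held both Myog and Mki67 or Top2a UMIs. UMIs of 1 class also appeared in cells far along the other, here at 5000 UMIs per cell: among cells with 20 or more UMIs of contractile genes, 4.23% to 27.1% per library had a Mki67 or Top2a UMI, and among cells with 6 or more Mki67 and Top2a UMIs, 0.155% to 42.7% had a Myog UMI, the highest values of both being in old population 3. Over all cells at that depth the shares were 26.1% to 64.8% with a Mki67 or Top2a UMI and 0.596% to 46.1% with a Myog UMI. The share with a Myog UMI in the cells with 6 or more Mki67 and Top2a UMIs was below that of all cells in 5 libraries, with 42.7% against 46.1% in old population 3, and above it in young population 3, at 6.91% against 5.00%. Doublets were not removed by a working caller, so their share in the cells with both marks was not tested. The cells were therefore divided into 4 classes, a comparison added after the data were seen.

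Cdkn1a was highest in cells with Myog UMIs and no Mki67 or Top2a UMIs, at 1608, 1402, 549.6, 1995, 3451 and 185 CPM (young 1, 2 and 3, then old 1, 2 and 3). In Myog cells that also had Mki67 or Top2a UMIs it was at 626, 627, 184, 646, 1941 and 91.3 CPM. Among cells without Myog it was at 307, 405, 115, 367, 1563 and 91.9 CPM without and 331, 335, 111, 409, 1054 and 89.8 CPM with Mki67 or Top2a UMIs. So within Myog cells the proliferation class had less Cdkn1a in 6 of 6 populations, with a log2 difference of -1.30 (SE 0.09, edgeR adjusted p = 1.04e-06), while outside them the difference was not called, at -0.15 (SE 0.11, edgeR adjusted p = 0.306). The difference between these 2 contrasts, tested as an interaction, was -1.21 (SE 0.21, edgeR adjusted p = 0.00595).

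Rb1 went the opposite way in the 2 kinds of cell. Without Myog it was higher in Mki67 or Top2a cells of all 6 populations, 0.24 (SE 0.06, edgeR adjusted p = 0.00927), and with Myog it was lower in all 6, -0.83 (SE 0.16, edgeR adjusted p = 0.00346). The log2 ratio without Myog ran from 0.07 in young population 3 to 0.54 in young population 1. With Myog it ran from -1.72 in old population 1 to -0.25 in old population 3. In young population 1 the 4 levels of Rb1 were 12.7 CPM with neither mark, 18.4 CPM with Mki67 or Top2a alone, 27.3 CPM with both and 55.5 CPM with Myog alone. The interaction was -1.12 (SE 0.18, edgeR adjusted p = 0.00277). Ccnd3 was at 179, 106, 163, 192, 114 and 214 CPM with Myog alone and 100.3, 72.6, 86.4, 112, 90.3 and 190.3 CPM with both marks, an interaction of -0.57 (SE 0.16, edgeR adjusted p = 0.0430). Ccnd1 and Ccnd2 had interactions of the other sign, 0.54 (SE 0.09, edgeR adjusted p = 0.00264) and 0.58 (SE 0.16, edgeR adjusted p = 0.0334). Ccnd1 was higher in the Mki67 or Top2a cells of the Myog class in 6 of 6 populations (0.53, SE 0.06, edgeR adjusted p = 2.1e-05) and not called outside it (-0.04, SE 0.04, edgeR adjusted p = 0.425). Ccnd2 was lower outside it in 6 of 6 (-0.59, SE 0.09, edgeR adjusted p = 0.00165) and not called within it (0.07, SE 0.10, edgeR adjusted p = 0.605).

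The interaction was thus called for 5 of the 10 genes, against 6.11% of the 13202 genes tested, with 2 values above 0 (3.20% of all genes) and 3 below (2.92%). With library-size scaling the calls over all genes moved to 731 above 0 and 244 below from 422 and 385, and 4 members were called, 2 in each direction, without Ccnd3. In the 4 libraries on the longer gene list alone it was called for 0 of the 10 and for 11 of 13422 genes, with Cdkn1a at -0.96 (SE 0.26, edgeR adjusted p = 0.124) and Rb1 at -0.89 (SE 0.22, edgeR adjusted p = 0.105). Leaving out young population 1, young population 2 or old population 1 left 3 of the 5 calls in each case, those of Cdkn1a, Rb1 and Ccnd1. These fits called 2.29%, 2.14% and 2.02% of all genes. Without young population 3 the call of Ccnd3 was lost as well (edgeR adjusted p = 0.137), and without old population 3 that of Ccnd2 (0.0945), with 3.39% and 2.93% of all genes called. Rbl1, Cdkn2d, Cdkn2c and Cdkn1b were higher in the proliferation class on both sides, by 1.82, 1.40, 0.73 and 0.41 in Myog cells and by 1.69, 1.51, 1.13 and 0.40 in the others. All 8 of these passed the edgeR threshold, which 43.4% of genes passed within Myog cells and 50.2% outside them, and their interactions were not called.

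**Figure D4:**
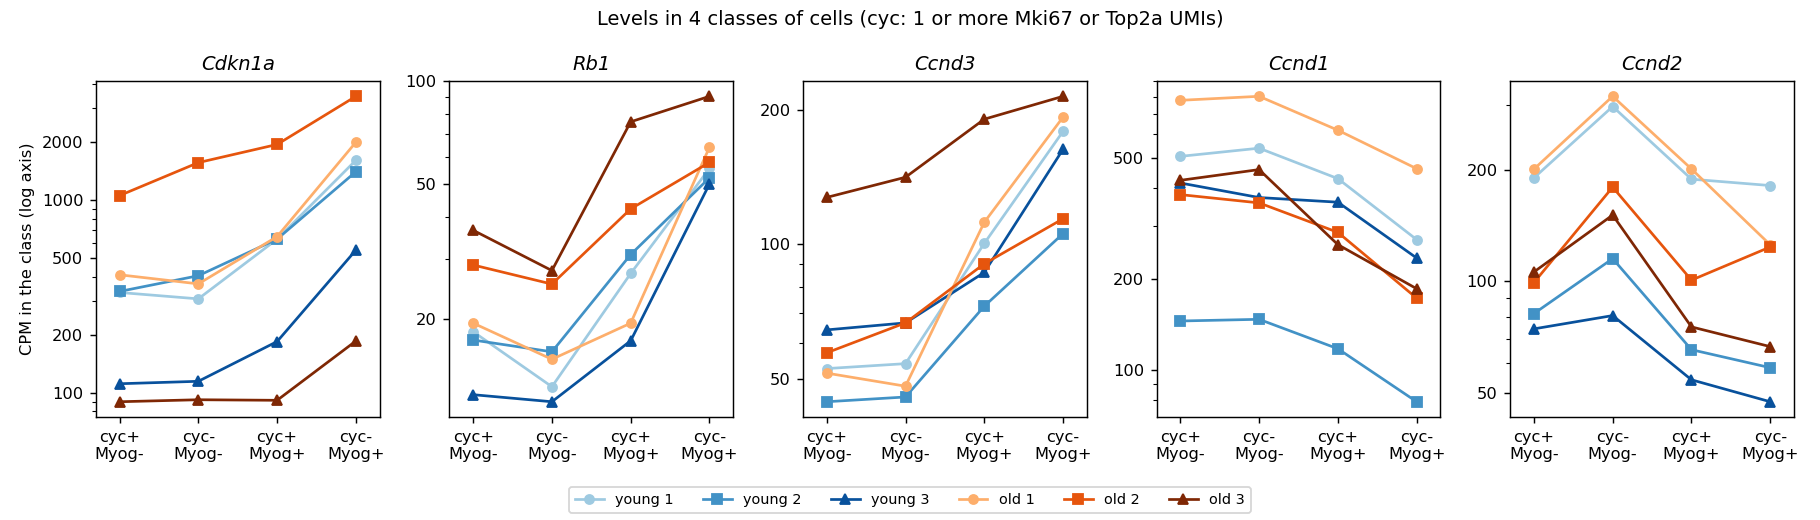
Level in CPM (log axis) of 5 genes in 4 classes of cells, by Mki67 or Top2a UMIs (cyc) and Myog UMIs, with 1 line per library joining its classes. Cdkn1a, Rb1 and Ccnd3 reach their highest level in Myog cells without Mki67 or Top2a UMIs in all 6 libraries, and Ccnd1 is lowest in that class in all 6.

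Neither class contrast was found to differ between old and young populations. For both interactions with age, edgeR called 0 of the 10 members and 0 genes in all (background 0% in each), with 330 and 483 genes at an unadjusted p under 0.05 for the Mki67 or Top2a and the Myog contrast, or 2.45% and 3.56%, and 0 members among them. DESeq2 called 0 and 2 genes, again with 0 members. The largest such differences among the members, as log2 of old over young, were -0.43 (SE 0.26) for Cdkn2c in the Mki67 or Top2a contrast and -0.36 (SE 0.33) for Cdkn1a in the Myog contrast.

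The genes around the members were described by 6 lists of the pathway. Their counts are read against the 21.9% of all genes called higher and 27.7% called lower in Mki67 or Top2a cells, and the 13.6% and 18.9% in Myog cells. In Mki67 or Top2a cells all 15 E2F targets of S phase were higher (median log2 difference 1.47, against -0.04 over all genes tested), led by the nucleotide enzyme Tk1 at 2.65 (SE 0.30, edgeR adjusted p = 0.000701) and the licensing factor Cdc6 at 1.77 (SE 0.33, edgeR adjusted p = 0.00543). Of 12 CDKs and other cyclins, 9 were higher and 2 lower, led by Ccna2 at 3.27 (SE 0.38, edgeR adjusted p = 0.000783). Of 16 E2F, DP and DREAM genes tested, 11 were higher and 0 lower, among them E2f7 at 2.55 (SE 0.39, edgeR adjusted p = 0.00240) and Foxm1 at 2.55 (SE 0.14, edgeR adjusted p = 7.11e-06). Of the 10 genes on the list of other INK4 and KIP genes and further regulators, Cdc25a among them, 4 were higher. On this list 3 were lower, near the share over all genes. With any 1 population left out, 1 or 2 were lower. Skp2, which targets p27 for degradation, was at 0.81 (SE 0.06, edgeR adjusted p = 8.12e-06) and its cofactor Cks1b at 1.07 (SE 0.15, edgeR adjusted p = 0.00128), in the same cells in which Cdkn1b RNA was higher. Of 14 p53 genes, 6 were higher and 3 lower, the latter near the share over all genes, with Trp53inp1, like Cdkn1a, on the low side at -0.46 (SE 0.09, edgeR adjusted p = 0.00251). Of 17 genes of myogenic differentiation, 15 were lower and 0 higher.

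In Myog cells 14 of 15 S-phase targets were lower (median -0.57, against -0.05 over all genes tested), and 14 of 16 myogenic genes were higher and 1 lower, led by Actc1, an actin of the contractile apparatus, at 8.21 (SE 0.72, edgeR adjusted p = 0.00235). On the 4 libraries of the longer list alone 1 of the 15 S-phase targets was called. That fit called 968 of 13661 genes lower, against 2568 of 13577 in all libraries. The 4 targets with the largest fold changes, Cdc6, Tyms, Tk1 and Gins2, were at -0.66, -0.58, -0.67 and -0.61 there. In all libraries they were at -0.76, -0.69, -0.69 and -0.65. Of 10 INK4 and KIP genes and regulators, 1 was higher, near the share over all genes, and 4 lower. The one that was higher was Cdkn1c, which encodes p57, at 2.20 (SE 0.52, edgeR adjusted p = 0.0176), but it was higher in 5 of 6 populations, was under 10 CPM in Myog cells of every library, and the call was lost without young population 2 or old population 3 (edgeR adjusted p = 0.0560 and 0.0601). Of 14 p53 genes, 1 was higher and 5 lower: Gadd45a was at 1.38 (SE 0.24, edgeR adjusted p = 0.00977), while Trp53 was at -0.41 (SE 0.06, edgeR adjusted p = 0.00301) and Mdm2 at -0.31 (SE 0.07, edgeR adjusted p = 0.0133). With 1 population left out 4 to 6 genes of this list were lower, and on the longer gene list alone 3 were, with Mdm2 (edgeR adjusted p = 0.116) and Sesn2 (0.0547) no longer called. Of 16 E2F, DP and DREAM genes 3 were higher, led by E2f2 at 0.93 (SE 0.09, edgeR adjusted p = 0.000478), and 5 lower, and of 12 CDKs and cyclins 1 was higher and 5 lower. With 1 population left out the numbers lower were 2 to 7 for the E2F list and 2 to 6 for the CDK list. Each had 2 without young population 1 or young population 2 and 3 without old population 2, and the E2F list also had 3 without old population 3. On the longer gene list alone 1 gene of each list was lower. Between old and young, 0 genes of the 6 lists were called by edgeR. DESeq2 called 3 of them, the INK4 genes Cdkn2a (log2 difference 4.18) and Cdkn2b (-1.98) and the p53 target Mdm2 (1.08). In edgeR, the Cdkn2a difference was 2.14 without old population 3 and 4.85 without old population 1. The latter fit rests on the longer-list libraries.

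By likeness of profile over the 6 populations, as a description, the genes nearest to each member among 4052 or 4053 genes with a mean log2 CPM above 5 had Pearson correlations of 0.945 to 0.996. Those nearest to Rbl1 were the maintenance DNA methyltransferase Dnmt1 (0.996), Rrp15 and Pmf1, those nearest to Cdkn2c began with the myogenic factor Myod1 (0.981), and those nearest to Rb1 with Gadd45b (0.993). The 3 genes nearest to Cdkn1a were Ttc1, Nudt9 and Spag9, on chromosomes 11, 5 and 11, which were shifted upward as a whole in old population 2, by 0.34 for chromosome 11 and 0.26 for chromosome 5. For Cdkn1b the nearest were Exoc6b and Mat2a, both on chromosome 6 like Cdkn1b itself, the chromosome that was shifted in young population 3, and then Mbtps1. With 6 points a high value is easily reached, and the points share library, depth and gene list.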

How the data were processed

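Cultured mouse muscle-derived stem/progenitor cells, 3 young and 3 old populations, were profiled with droplet 3′ single-cell RNA-seq (10x v3.1, per the labels' protocols). The deposited matrices hold raw UMI counts per gene and barcode. They were made with Cell Ranger 7.0.0 (young 1, old 1) or 7.2.0 (the other 4), per the file headers, and the submitters' processing notes name Cell Ranger 7.2.0, Seurat and mm10. The shorter gene list has 21849 features and the longer 32285, and the 21485 shared identifiers were used. Every barcode in the matrices had at least 500 UMIs.

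Cells with at least 1000 UMIs, 500 genes and at most 15% mitochondrial UMIs were kept, 61672 of 62849 barcodes. Scrublet (scanpy 1.11.5) called 1 cell, 0.00162%, and so did not work as a doublet filter. Gene positions are those of GRCm38 and promoter windows those of RefSeq.

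Counts were summed per population, or per population and class, and tested with edgeR 4.0.16 (R 4.3.3): TMM scaling, its filter on low counts, the robust quasi-likelihood test and Benjamini-Hochberg adjustment at 0.05. The age fit had a term for the gene list, and the class fits had the sample as a block. The SE given with edgeR differences is implied by the test: the absolute log2 difference divided by the square root of its F statistic. Shares of cells with a UMI were taken at 5000 UMIs per cell, which left out 539 young and 829 old cells, and were compared with an exact two-sided permutation test (scipy 1.17.1). Printed CPM values are not TMM scaled. The likeness search used genes with a mean log2 CPM above 5. The fits were also run on simulated counts with known changes. There each gene had the same underlying rate on both gene lists and varied independently of the others, unlike these cultures. No result given here rests on that run. Alternatives were DESeq2 1.42.0, other scaling, filters and cell sets, and leaving out each population.

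The 10 members are always named. From each list, up to 4 called genes with the largest fold change could be named, or, with none called, the 2 with the lowest p. The members and lists were chosen with earlier results of these data known.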

Additional observations from a re-analysis of the deposited data

Results flagged for a closer look

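Cdkn2c had 1 population apart from the others in the contrast of cells with and without Mki67 or Top2a UMIs. In young population 3 the log2 ratio was 1.86, the next highest was 1.02, and the gap made up 0.696 of the range over the 6 populations, above the 95% limit of Dixon's test for 6 values. This check was made for 20 contrasts of the 10 genes and found 1, and chance flags about 1 in 20 such groups.

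For 5 genes the contrast between cells with and without Mki67 or Top2a UMIs differed between cells with and without Myog UMIs, by the interaction test in edgeR. As log2 differences, with Myog minus without, the values were 0.58 for Ccnd2, 0.54 for Ccnd1, -1.12 for Rb1, -1.21 for Cdkn1a and -0.57 for Ccnd3. The part of doublets and of free RNA in the cells that held both marks was not tested.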

How the results depend on the processing

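Between old and young populations no member was called under any alternative, and 170 of 180 alternative values kept their direction. The exceptions were Rbl2 with the replicate number as a block (-0.020), Ccnd2 without the term for the gene list (-0.0086), and values with 1 population left out, which ran from -0.93 to 1.47 for Cdkn1a, -0.21 to 0.49 for Cdkn2d, -0.49 to 0.11 for Rbl1, -0.37 to 0.28 for Rbl2, -0.034 to 0.82 for Ccnd1 and -0.11 to 1.05 for Ccnd3. Deviations from the group means correlated at 0.378, 0.224 and -0.0814 between same-numbered populations and at -0.408 to 0.276 between the others. The value of 0.378 belongs to the pair on the shorter gene list, and whether the numbers pair the samples is not known. With the replicate block 0 members and 1 gene were called. Over all genes edgeR called 1 and DESeq2 219, at a biological coefficient of variation of 0.563. For shares, the old minus young difference of Cdkn1a was -11.3 points unthinned, and with 1 population left out the differences ran from -13.8 to 24.6 points for Cdkn1a, -0.925 to 6.61 for Cdkn2d, -1.37 to 0.516 for Rbl1, -1.09 to 1.19 for Rbl2, -7.53 to 13.9 for Ccnd1, -3.82 to 13.8 for Ccnd2, 0.559 to 17.2 for Ccnd3 and 3.43 to 11.3 for Rb1.

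In the Mki67 or Top2a contrast 149 of 170 values kept direction and call. In cells without Myog, Rb1 was at 0.24 and Ccnd1 at -0.041, and in Myog cells Ccnd2 was at 0.068. Rbl2 was at 0.036 with library-size scaling, 0.012 without a filter, 0.016 thinned, 0.0048 with 3 or more class UMIs, 0.023 on the longer list, 0.032 in Myog cells and -0.029 to 0.0081 with 1 population left out. In the Myog contrast 155 of 170 did so, and Cdkn2d was at -0.015 in thinned cells. The interaction of both classes was called for 4 members with library-size scaling (7.39% of all genes) and 3 without a filter on low counts (3.36%). It was called for 0 on the longer list (0.082%) and 3 to 5 with 1 population left out (2.02% to 4.68%). The main fit called 6.11% of all genes. The cause of these changes was not tested. Leaving out populations leaves fewer samples, 3 populations a group limit the precision, and 117 Myog cells in old population 1 limit its class values. In the age fits without young population 1 or old population 1, the difference rests on the longer-list libraries alone.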
